A study of Rattus norvegicus with 65 samples.

Results

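The genes described here are 32 genes of fatty acid oxidation and related lipid handling, widely described as targets of the nuclear receptor PPAR alpha, followed in the livers of rats given 1 of 10 hepatocarcinogens. They were taken from a fixed list of names, and all 32 were found among the 14217 genes of the array that have a probe set with a single gene symbol. For each gene the probe set with the highest mean over all arrays was used. By role they fall into omega hydroxylation (4 genes), peroxisomal oxidation (4), the carnitine shuttle (4), mitochondrial oxidation (7), acyl-CoA thioesterases (5), fatty acid uptake and binding (4) and other targets (4).

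Liver RNA of 65 male, 6-week-old Sprague-Dawley rats was hybridised to Affymetrix arrays, 1 array per rat, in 22 groups of 3 rats, except for DEN short, which had 2. A genotoxic (GTX) set held 2-AAF, 3MeDAB, DEN and an untreated control, a nongenotoxic (NGTX) set held 1,4-Dioxane, Clofibrate, DL-Ethionine and an untreated control, and a test set held DCP, ME, SN and Urethane with no control. Each compound had a short and a long group, labelled 3 h and 72 h, whereas the treatment protocol has repeated doses and a last interval of 24 h, so short and long are used below as names. The controls carry no time. Doses are given for the test compounds alone, in the sample descriptions and without a unit (DCP and SN 50, ME 300, Urethane 500, given 3 times in the long groups). All rats had free access to food. Values are log2 levels, differences are log2 differences ± SE from limma, and a gene is said to have risen or fallen (or to be called) when its Benjamini-Hochberg adjusted p over all genes tested was under 0.05. The 6 comparisons of a set share its 3 control rats.

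PPAR alpha is a receptor that binds fatty acids and, as a heterodimer with RXR, sits on direct repeats of the AGGTCA element. In rodent liver it switches on fatty acid uptake, import into mitochondria and peroxisomes, and oxidation, both in fasting and under fibrate drugs, and prolonged activation enlarges the peroxisome population. Clofibrate is a fibrate and an activator of this receptor.

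Promoter sequences were searched for letters that resemble this element. RefSeq promoters of the GRCr8 build were at hand for 26 of the 32 genes. They were not at hand for Cyp4a1, Cpt1b, Acadl, Acaa2, Decr1 and Vnn1. The 250 bases before the start and the 50 bases after it were searched on both strands. The motif was AGGTCANAGGTCA with at most 2 mismatches over its 12 fixed letters. A match was present in 6 of 26 promoters (23.1%), against 398 of 13242 promoters of genes on the array (3.01%) and 1263 of 33469 in the reference (3.77%). The unspaced element AGGTCA alone, with no mismatch, was present in 26.9% of the 26 and 13.2% of those on the array. A match is a description of letters and not a site, and no match says only that these letters are not in this window. The upstream sequences of the 3 genes with a match that rose with Clofibrate short are shown 5′ to 3′, with the match in capitals. Acot4 lies at chr6:109399604-109399853, plus strand, Acot12 at chr2:24721709-24721958, plus strand, and Crat at chr3:34087100-34087349, minus strand.
Acot4: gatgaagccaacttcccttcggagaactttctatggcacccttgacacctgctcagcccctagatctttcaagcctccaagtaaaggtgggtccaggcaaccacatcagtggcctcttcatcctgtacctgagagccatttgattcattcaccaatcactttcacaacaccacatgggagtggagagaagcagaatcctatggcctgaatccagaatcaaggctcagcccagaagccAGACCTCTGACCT
Acot12: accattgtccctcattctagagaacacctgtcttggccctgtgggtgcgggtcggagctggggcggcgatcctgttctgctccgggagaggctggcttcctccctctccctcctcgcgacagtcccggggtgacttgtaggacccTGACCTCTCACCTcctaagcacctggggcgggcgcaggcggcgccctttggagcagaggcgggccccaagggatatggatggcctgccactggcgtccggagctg
Crat: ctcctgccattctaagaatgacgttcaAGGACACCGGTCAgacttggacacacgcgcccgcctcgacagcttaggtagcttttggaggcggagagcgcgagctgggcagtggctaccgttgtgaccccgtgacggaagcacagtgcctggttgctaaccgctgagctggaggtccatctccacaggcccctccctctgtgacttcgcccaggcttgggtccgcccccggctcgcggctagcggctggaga
The match ended directly at the start in Acot4, where it began at position -13. It began at -105 in Acot12 and, with 2 mismatches in place of 1, at -223 in Crat. The other 3 matches lay in genes that did not rise with Clofibrate short, and only their matched letters are shown.
Fabp1: TGACCTATGGCCT
Acadvl: AGGTCAGTGGTCA
Slc27a2: TGACCTTTGAGAT
They began at -77 (Fabp1), -17 (Acadvl) and -76 (Slc27a2). Of the 9 genes that rose with Clofibrate short, Ehhadh, Pex11a, Decr2, Hadhb, Acot2 and Cd36 had no match in this window.

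The lowest value of an array was 3.33 to 3.41 in the GTX set, 3.23 to 3.30 in the NGTX set and 2.28 to 2.40 in the test set, with no overlap, so levels are compared within a set only. All 8 hepatocyte markers were measured, with Alb at a mean of 14.73. Of 8 muscle markers, 2 passed the filter on low values in the GTX and NGTX fit. The filter asked for a level above 6.03 in at least 2 arrays there, and above 5.64 in the test set. All 32 genes passed in the GTX and NGTX sets and 31 in the test set, where Acot1 was not tested. Acot1 and Cpt1b were above the filter in 0 of 6 control rats, so they passed through treated rats alone. They are therefore described in the GTX and NGTX sets by their levels and their distance above the filter level of 6.03, with no p. Their difference of differences is listed in the closing section only, with this limit. Where they were among the genes called, the count is also given for the 30 other genes. Ppara itself lay between group means of 4.57 and 5.43 in the GTX and NGTX sets and did not pass the filter. Probe sets listed under 2 gene symbols exist for Acot1 with Acot2, for Cyp4a3 with Cyp4a2 and for Cd36, and were not used. Near-identical copies such as Acot1 and Acot2 cannot be told apart with certainty by array probes.

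**Figure D1:**
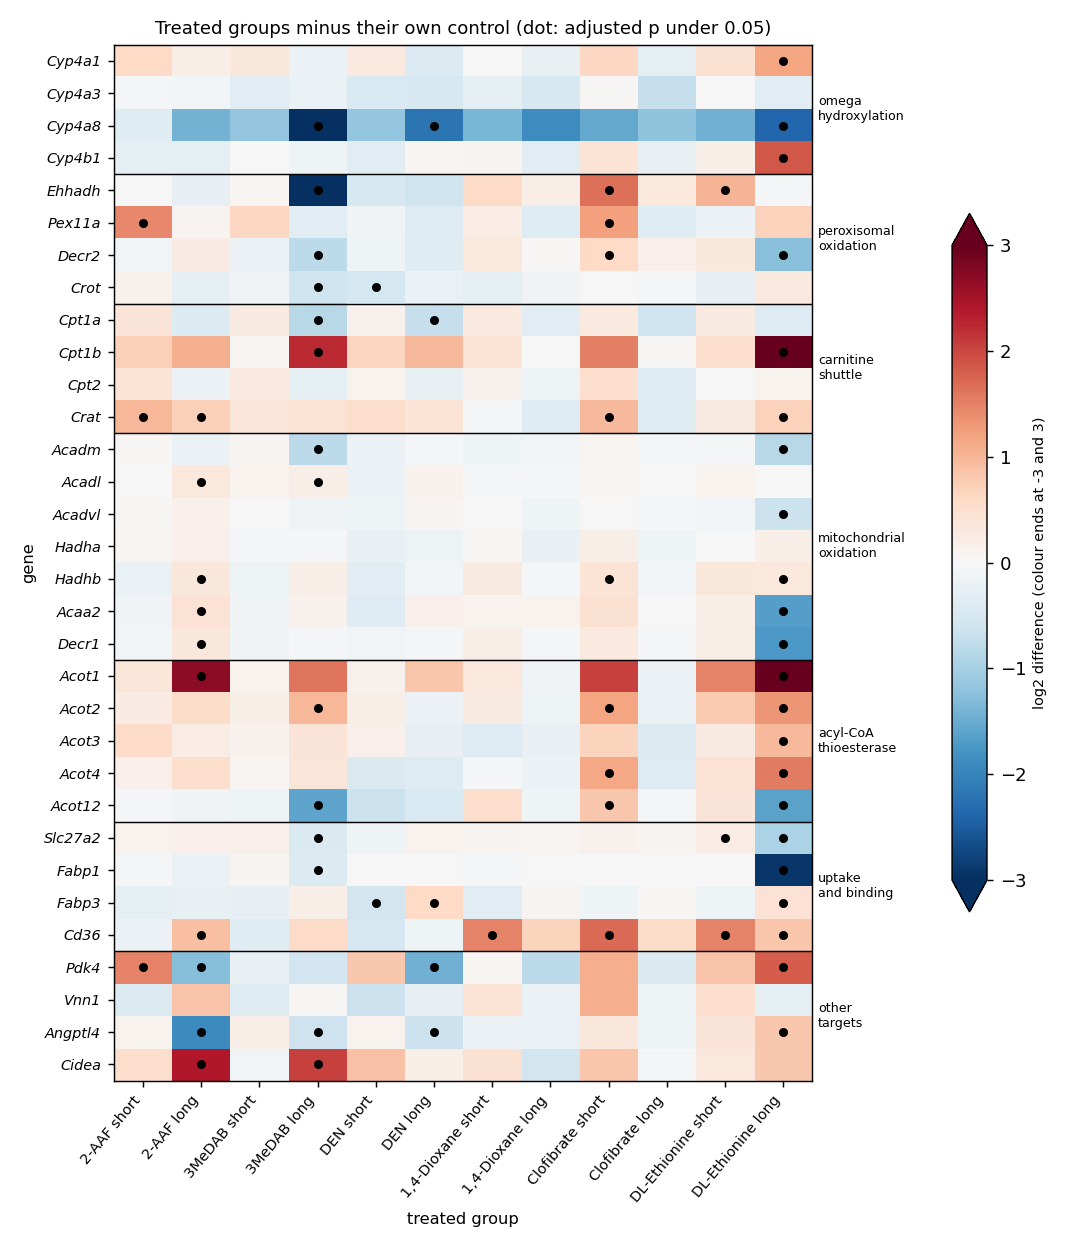
Log2 difference of each treated group from its own control (columns) for the 32 genes (rows, grouped by role), with a dot where the adjusted p was under 0.05. Clofibrate short has 9 dots, all on the higher side, whereas DL-Ethionine long has 13 higher and 9 lower.

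Clofibrate short asked what the receptor's activator did at the first time point. Of the 32 genes, 9 rose and 0 fell, against 1.54% and 1.35% of 11013 genes tested (2.9% either way). The median difference of the 32 was 0.49, against -0.01 over all genes tested. The 9 came from 5 of the 7 roles: 3 of 4 peroxisomal genes, 3 of 5 thioesterases, and 1 gene each of the carnitine shuttle, mitochondrial oxidation, and uptake and binding. None of the 4 omega hydroxylases and none of the 4 other targets passed the test.

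Ehhadh, the bifunctional enzyme of the peroxisomal spiral, lay at 12.71, 13.57 and 13.06 in rats 1 to 3 of Clofibrate short, against 11.13, 11.52 and 11.70 in the controls. All 3 treated rats were above all 3 controls, and the difference was 1.66 ± 0.28 (3.15-fold, adjusted p = 0.000797). Pex11a, which promotes peroxisome division, read 9.36, 11.53 and 9.71 against 8.46, 9.23 and 9.20. Rat 2 stood far above the other two, and the difference was 1.24 ± 0.35 (adjusted p = 0.0477). Only 1 of the 2 Pex11a probe sets was called. Decr2, which removes double bonds in the peroxisome, rose by 0.59 ± 0.14 (adjusted p = 0.021).

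Cd36, a fatty acid translocase of the cell surface, lay at 8.62, 9.38 and 9.36 in Clofibrate short and at 7.90, 7.12 and 7.24 in the controls. Control rat 1 was the highest control, still below every treated rat. The difference was 1.70 ± 0.33 (3.25-fold, adjusted p = 0.00415). Acot2, a mitochondrial thioesterase, read 11.28, 12.48 and 11.31 against 10.57, 10.46 and 10.47, a rise of 1.19 ± 0.30 (adjusted p = 0.0294). Acot4, its peroxisomal relative, read 11.20, 11.95 and 11.32 against 10.23, 10.35 and 10.42, a rise of 1.16 ± 0.31 (adjusted p = 0.0364). In both thioesterases the controls were tightly grouped and rat 2 of Clofibrate short was again the highest. Crat, which moves short acyl groups to carnitine, read 10.04, 10.91 and 10.12 against 9.34, 9.40 and 9.42, a rise of 0.97 ± 0.26 (adjusted p = 0.0358). Acot12 rose by 0.82 ± 0.21 and Hadhb, a subunit of the mitochondrial trifunctional protein, by 0.41 ± 0.11 (adjusted p = 0.028 and 0.0389).

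Several genes often used as markers of fibrate action did not pass. Cyp4a1, a microsomal omega hydroxylase of fatty acids, read 13.04, 13.40 and 13.10 against 12.57, 12.49 and 12.60, with no overlap. Its difference was 0.63 ± 0.20 (adjusted p = 0.0768). Cyp4a3 differed by 0.03 ± 0.24. Of Cpt1b and Acot1, whose controls were below the filter level, neither passed, and rat 2 stood apart in both. Acot1 read 9.43 in it against 5.00 and 4.75 in the others. Fabp1, the liver fatty acid binding protein, differed by 0.00 ± 0.17. It lay at 14.10 to 14.16 in both groups, and the highest probe set of the arrays in this set lay at 14.74 to 14.86.

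Rat 2 had the highest level of the 3 Clofibrate short rats in 25 of the 32 genes. Without it, 2 genes were called (Cd36 and Ehhadh, with adjusted p = 0.0474 and 0.0172), and for all 9 genes its absence gave the highest adjusted p among the rats left out, up to 0.452 for Pex11a. The count was also 2 without NGTX control rat 2 and 3 without NGTX control rat 3. Cd36 and Ehhadh kept their calls without each of the 6 rats in turn. In a fit of only the 2 groups compared, 5 genes were called.

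Clock and feeding genes moved with the short groups of this set, and the part they play was not tested. In Clofibrate short, Npas2, a clock activator, was below the controls (-1.75), and Tef, a clock output factor, was higher by 0.89 (2 of 11 clock genes called). Tat, which breaks down tyrosine in fasting, was higher by 1.71 and Igfbp1, a binding protein induced in fasting, by 1.55 (2 of 8 feeding genes). Npas2 differed likewise in 1,4-Dioxane short (-1.60) and DL-Ethionine short (-2.29). In bulk liver, fewer cells of a type and less RNA per cell cannot be told apart. Macrophage markers had 1 of 7 called with Clofibrate short (C1qb, 0.53). Their mean level was 9.89 to 10.02 in these rats and 9.37 to 9.69 in the controls, a shift whose part in the result was not tested.

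**Figure D2:**
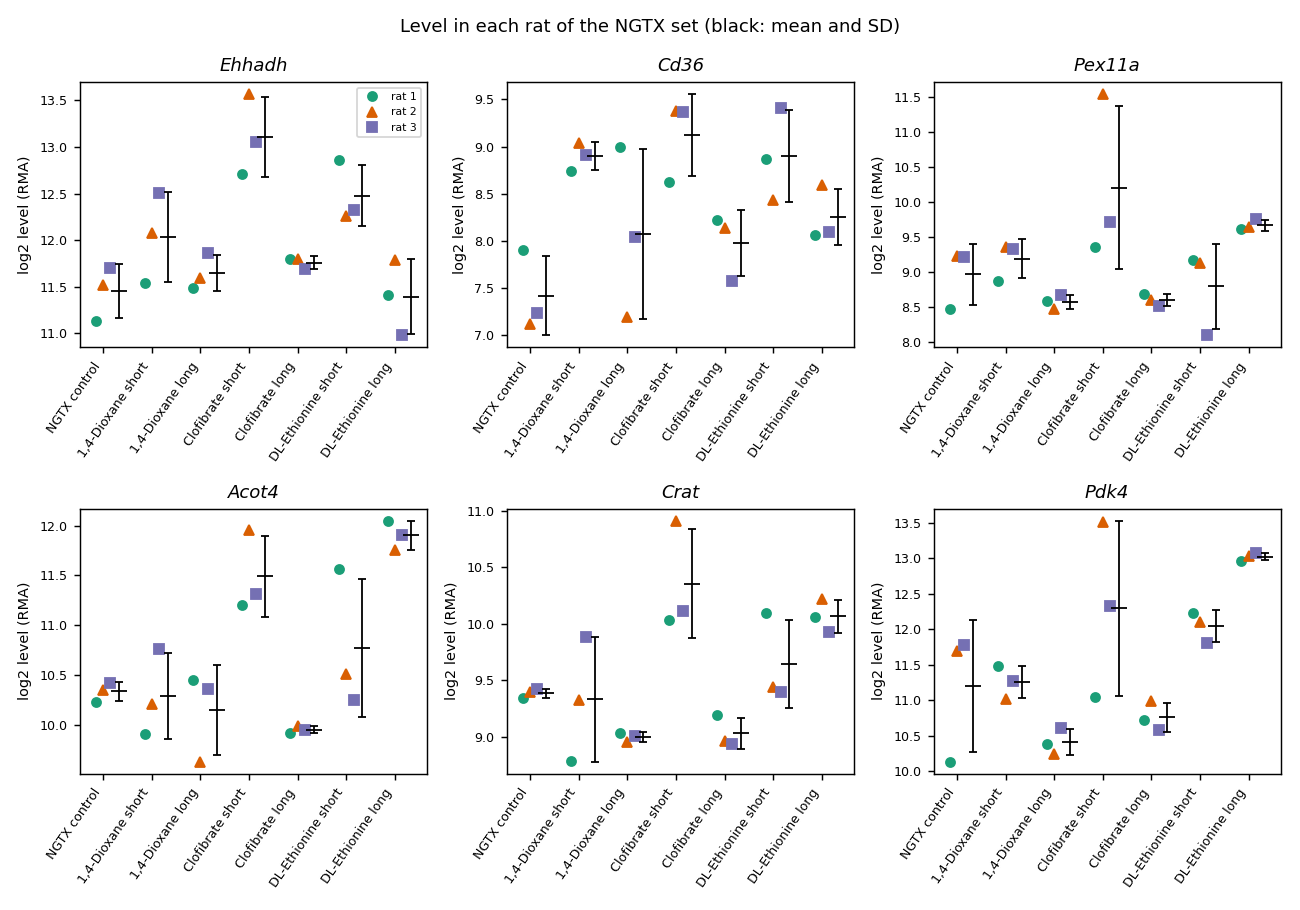
Log2 level of 6 genes in each rat of the NGTX set (points, by rat number), with the group mean and SD in black. Ehhadh and Acot4 are above all controls in the 3 Clofibrate short rats and return to about the control level in Clofibrate long.

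Other genes of the pathway were taken from lists of related enzymes in Clofibrate short. Of 16 further peroxisomal genes tested, 1 rose (Pex16, 0.47 ± 0.12) and 0 fell. Of 15 further mitochondrial genes, 3 rose: Eci1, an enoyl-CoA isomerase (0.86 ± 0.23), Mlycd, which destroys the CPT1 inhibitor malonyl-CoA (0.50 ± 0.14), and Aldh3a2, a fatty aldehyde dehydrogenase (0.36 ± 0.09). Of 12 lipid droplet genes, Cidec rose by 0.66 and Abhd5, a lipase activator, fell by 0.59. None of 12 receptor partners, 4 ketone body genes or 12 acyl-CoA synthesis genes was called.

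In Clofibrate long, 0 of the 32 genes were called, against 0.0636% and 0.0726% of all genes, and 1 in a fit of only the groups compared. At an unadjusted p under 0.05 there were 3. Ehhadh read 11.80, 11.80 and 11.68, a difference of 0.31 ± 0.28, and Acot4 read 9.92, 9.98 and 9.94, a difference of -0.39 ± 0.31. The largest difference in either direction was that of Cyp4a8, at -1.22, whose controls were split (5.56, 8.88 and 9.03).

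Long minus short of Clofibrate needs no control. It gave 13 lower and 0 higher genes, against 2.13% and 1.33% of all genes, with a median of -0.80 against 0.01. Pex11a went from 9.36, 11.53 and 9.71 to 8.68, 8.60 and 8.51, a difference of -1.61 ± 0.35 (adjusted p = 0.00696). Acot4 decreased by 1.54 ± 0.31 (adjusted p = 0.0035), with the 3 long rats all below the 3 short ones. Pdk4, the kinase that shuts pyruvate dehydrogenase in fasting, went from 11.04, 13.51 and 12.33 to 10.72, 10.98 and 10.58, a difference of -1.53 ± 0.43 (adjusted p = 0.04). Acot2 decreased by 1.39 ± 0.30 (adjusted p = 0.00705) in all 3 of its probe sets. The other 9 were Ehhadh, Crat, Cd36, Acot3, Cyp4a1, Cpt1a, Cpt2, Acot12 and Hadhb, with differences from -1.35 to -0.49. Without Clofibrate short rat 2 the count was 2, Cpt1a (adjusted p = 0.025) and Cpt2 (adjusted p = 0.0117), and in a fit of only the groups compared it was 8.

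Clofibrate was then set against the mean of 1,4-Dioxane and DL-Ethionine, with no control involved. At the short time 0 genes were called, as in the whole table (0%), and 11 had an unadjusted p under 0.05. Of the 32 differences, 30 were above 0, with a median of 0.27 against 0.01 over all genes. The shares of all genes above 0 or under this unadjusted p were not counted. Rat 2 was the highest of Clofibrate short in 25 of the 32 genes, so these signs are not independent. Of the 32 intervals at 95%, 21 included 0. The 95% interval was 0.36 to 1.34 for Ehhadh (difference 0.85), 0.59 to 1.83 for Pex11a (1.21), 0.41 to 1.51 for Acot4 (0.96) and -0.36 to 0.80 for Cd36 (0.22), so differences of these sizes are not excluded. Without DL-Ethionine short rat 1, which had the highest level of its group in 24 of 32 genes, 6 were called. Without 1,4-Dioxane short rat 3 or Clofibrate short rat 1 there was 1. At the long time, 8 were higher and 10 lower, against 13.1% and 18.2%, or 8 and 8 without Acot1 and Cpt1b. Acadvl, a mitochondrial dehydrogenase of long acyl chains, lay at 11.38 to 11.56 in Clofibrate long, above the 6 other rats (lowest 10.80, median 11.10, highest 11.35), with a difference of 0.36 ± 0.07 (adjusted p = 0.00014). Cpt2, the inner carnitine transferase, lay below them, with a difference of -0.37 ± 0.13 (adjusted p = 0.0239). In the other 16 genes the groups overlapped, and the 2 other compounds lay far apart, as described next for DL-Ethionine.

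1,4-Dioxane short raised 1 of 32 genes and lowered 0 (all genes 1.82% and 3.69%). Cd36 read 8.74, 9.04 and 8.91 against 7.90, 7.12 and 7.24, a rise of 1.48 ± 0.33 (adjusted p = 0.00705), and lost its call without NGTX control rat 2 (adjusted p = 0.05). The count was 2 without NGTX control rat 1. 1,4-Dioxane long had 0 called (0.0908% and 0.0726%), 2 at an unadjusted p under 0.05, and 1 without NGTX control rat 1. DL-Ethionine short had 3 higher and 0 lower (2.1% and 3.05% of all genes, 5.15% either way). Cd36 read 8.87, 8.44 and 9.41, a rise of 1.48 ± 0.33 (adjusted p = 0.00716). Ehhadh read 12.86, 12.26 and 12.32, a rise of 1.02 ± 0.28 (adjusted p = 0.0258). Slc27a2, an acyl-CoA synthetase that takes up very long chains, read 13.69, 13.61 and 13.69 against 13.37, 13.43 and 13.49, a rise of 0.23 ± 0.07 (adjusted p = 0.034). The count fell to 1 without DL-Ethionine short rat 1 or rat 2, and to 0 without its rat 3, NGTX control rat 2 or NGTX control rat 3. It was 0 in a fit of only the groups compared and 5 with the mean of probe sets. Cd36 thus rose in all 3 short groups of the NGTX set, which share their controls.

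DL-Ethionine is the ethyl analogue of methionine, and in its long group these genes, like all genes tested, moved in both directions. Of the 32, 13 rose and 9 fell, against 30% and 23% of all genes tested (53.1% either way), with a median of 0.23 against 0.03. Without Acot1 and Cpt1b it was 11 and 9 of 30. By role, the thioesterases Acot2, Acot3 and Acot4 rose and Acot12 fell, with Acot1 described by its level below, whereas 4 of 7 mitochondrial genes fell and 1 rose.

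Acot1, the cytosolic thioesterase, lay at 10.61, 9.88 and 9.94 in DL-Ethionine long, against 4.19, 4.47 and 4.36 in the controls. The controls were below the filter level and the treated mean was 4.12 above it, so the log2 difference from that level is given as at least 4.12. Cpt1b, the carnitine transferase typical of muscle, read 9.02, 8.76 and 9.15 against 5.70, 5.83 and 5.84, likewise below the filter level, for a log2 difference of at least 2.95. Of the 8 muscle markers, 2 were tested and 0 called, and their mean level was 5.00 to 5.21 here and 4.96 to 5.14 in the controls. Cyp4b1, a P450 of short and medium fatty acids, read 9.97, 9.73 and 9.93 against 7.98 to 8.03 in the controls, a rise of 1.87 ± 0.19 (adjusted p = 1.23e-09). Pdk4 rose by 1.82 ± 0.43 and Angptl4, a secreted inhibitor of lipoprotein lipase, by 0.82 ± 0.19 (adjusted p = 0.000639 and 0.000439). Pdk4 had 1 of its 2 probe sets called. Cyp4a1 rose by 1.19 ± 0.20 and Acot4, Acot2 and Acot3 by 1.57, 1.32 and 0.98.

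Genes of binding and mitochondrial oxidation had the largest falls among those whose rats did not overlap. Fabp1 lay at 11.76, 11.49 and 10.32 against 14.16, 14.10 and 14.10, a difference of -2.93 ± 0.17 (7.62-fold, adjusted p = 3.68e-15). Decr1, the mitochondrial dienoyl-CoA reductase, read 10.84, 10.78 and 11.19 against 12.55, 12.70 and 12.70, a difference of -1.72 ± 0.11 (adjusted p = 4.76e-14). Acaa2, the mitochondrial thiolase, read 10.57, 10.89 and 10.42 against 12.34, 12.21 and 12.30, a difference of -1.66 ± 0.15 (adjusted p = 4.52e-11), in 1 of its 2 probe sets. In each of these the 3 treated rats lay below all controls by more than the spread within either group. Cyp4a8, Acot12, Decr2, Slc27a2, Acadm and Acadvl also fell, with differences of -2.37, -1.61, -1.26, -0.94, -0.83 and -0.64. Cyp4a8 overlapped with the controls, because control rat 1 read 5.56. Cyp4b1, Fabp1, Decr1 and Acaa2 kept their calls without each of the 6 rats in turn, and the count ranged from 18 to 23.

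Other genes of the pathway also moved in these livers. Of 16 further peroxisomal genes 9 fell and 2 rose. Ephx2, a soluble epoxide hydrolase, fell by 3.47 ± 0.57, Phyh, which starts phytanic acid breakdown, fell by 2.02 ± 0.11, and Acox2, the branched-chain oxidase, fell by 1.30 ± 0.16. Of 15 further mitochondrial genes 6 fell and 3 rose, with Etfdh, which passes electrons to ubiquinone, lower (-1.82) and Eci1 higher by 0.85. Bdh1, the last enzyme of ketone body synthesis, fell by 4.67 ± 0.17, and Slc27a5, a bile acid and fatty acid CoA ligase, fell by 4.00 ± 0.15. Ppargc1a, the coactivator, rose by 2.49 ± 0.32, and Fgf21, a hormone induced by the receptor, fell by 2.24 ± 0.74. Macrophage markers rose in 7 of 7 (0.82 to 1.74) and endothelial markers in 4 of 4 (0.48 to 1.51). Their mean levels per rat were 10.79 to 11.21 and 10.12 to 10.17, against 9.37 to 9.69 and 9.03 to 9.41 in the controls. Hepatocyte markers had 3 of 8 higher and 1 lower. The part of these shifts in the result was not tested.

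**Figure D3:**
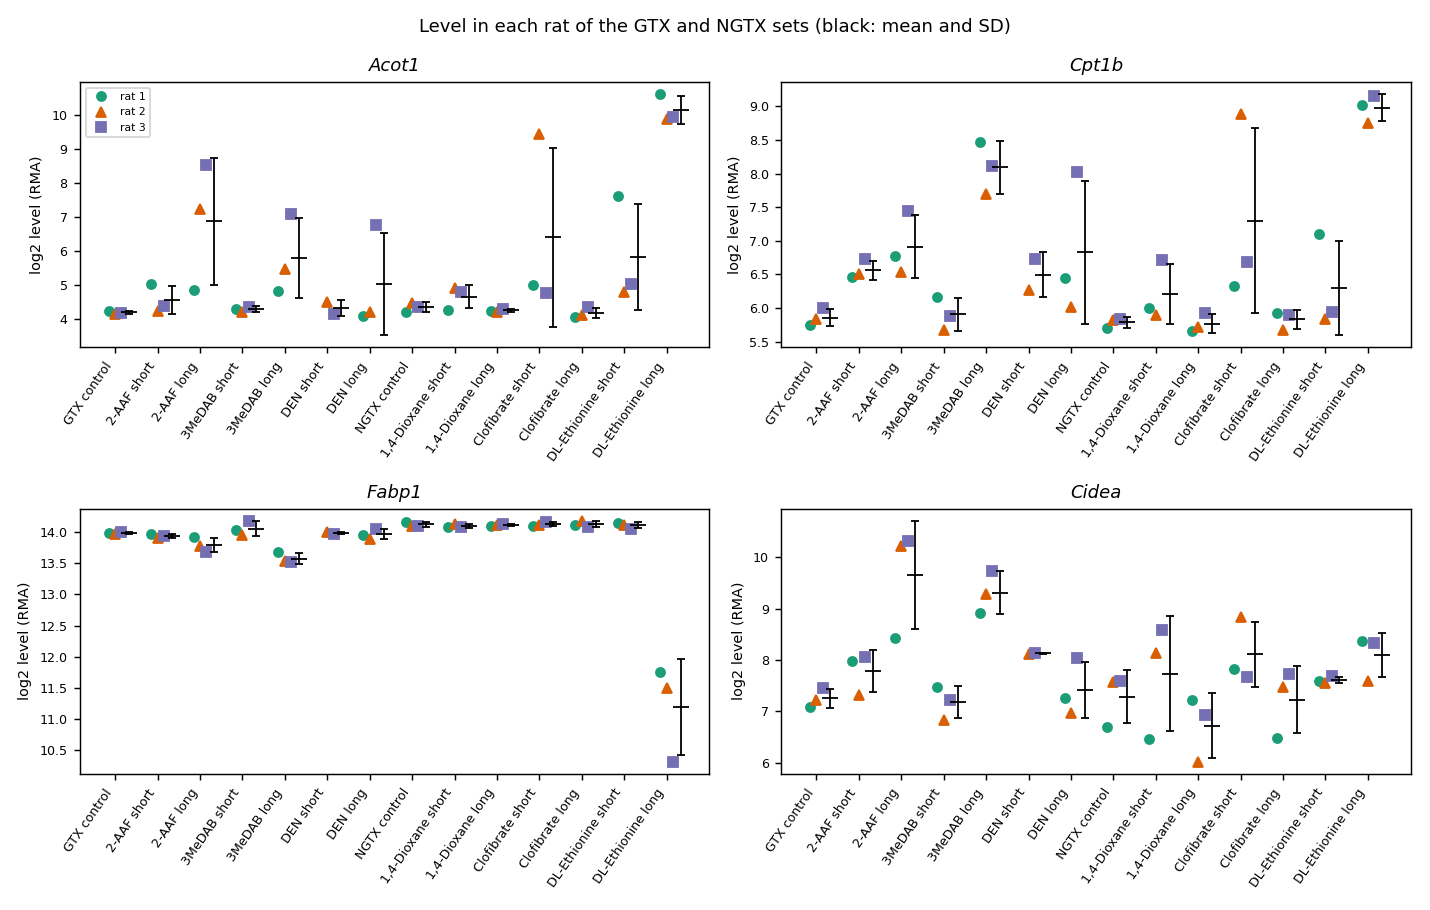
Log2 level of Acot1, Cpt1b, Fabp1 and Cidea in each rat of the GTX and NGTX sets (points, by rat number), with the group mean and SD in black. Acot1 and Cpt1b are high in all 3 DL-Ethionine long rats and are both high in single rats of Clofibrate short, DL-Ethionine short and DEN long. Among other groups, Cpt1b is also high in 3MeDAB long (mean 8.09) and Acot1 in 2 of 3 rats of 2-AAF long. Fabp1 is low in DL-Ethionine long.

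Acot1 and Cpt1b were both high in 3 single rats, noticed after their values were seen. In Clofibrate short rat 2 they read 9.43 and 8.88, in DL-Ethionine short rat 1 they read 7.62 and 7.10, and in DEN long rat 3 they read 6.75 and 8.03. The other rats of those groups read 4.09 to 5.03 for Acot1 and 5.84 to 6.69 for Cpt1b. In 3MeDAB long and 2-AAF long the order of the rats differed between the genes.

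In the GTX set, 2-AAF short had 3 genes higher and 0 lower (4.27% and 4.22% of all genes, 8.49% either way). Pdk4 read 13.13, 12.14 and 12.54 against 10.23, 11.58 and 11.55, a rise of 1.48 ± 0.43 (adjusted p = 0.0281). Pex11a read 9.72, 10.37 and 10.46 against 8.52, 8.76 and 8.92, a rise of 1.45 ± 0.35 (adjusted p = 0.00887). Both genes rose in both of their probe sets. Crat read 9.70, 9.96 and 9.88 against 8.67, 8.85 and 9.03, a rise of 1.00 ± 0.26 (adjusted p = 0.0148). Ppargc1a rose by 2.23 and Tat by 1.86 beside them. The count was 0 without 2-AAF short rat 3 and 1 without GTX control rat 1, in which Pdk4 was low, and 5 in a fit of only the groups compared.

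2-AAF long had 8 higher and 2 lower (16% and 16.1%), or 7 and 2 without Acot1 and Cpt1b. Acot1 read 4.84, 7.23 and 8.53, so 2 of 3 rats were above the filter level, against 4.14 to 4.23 in the controls, which were below it. Cidea, a lipid droplet protein of brown fat and of fatty liver, read 8.43, 10.21 and 10.31 against 7.08, 7.22 and 7.46. It rose by 2.40 ± 0.46 (5.28-fold, adjusted p = 0.000184). Adipocyte markers had 0 of 4 called. Cd36 read 8.69, 8.93 and 9.12 against 8.66, 7.78 and 7.59, a rise of 0.90 ± 0.33 (adjusted p = 0.0352) with rat 1 of each group nearly level. Acaa2, Decr1, Hadhb and Acadl rose by 0.31 to 0.42. Angptl4 read 10.04, 9.15 and 9.67 against 11.23, 11.63 and 11.71, a difference of -1.90 ± 0.19 (adjusted p = 6.39e-09), and Pdk4 fell by 1.29 with overlap. Cidea and Angptl4 kept their calls without each rat in turn. The count was 4 without 2-AAF long rat 3, 5 without GTX control rat 2 and 5 in a fit of only the groups compared. Beside them Fabp2, the intestinal binding protein, rose by 3.47, Scd, the stearoyl-CoA desaturase, fell by 5.47, and 5 of 7 macrophage markers fell (mean level 9.18 to 9.64 against 9.86 to 10.12). The part of the latter was not tested.

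3MeDAB short had 0 called (0.245% and 0.672%, 0.917% either way), and 1 at an unadjusted p under 0.05. 3MeDAB long had 4 higher and 10 lower (35.9% and 17.6% of all genes, 53.6% either way), where 12.5% of the 32 genes were higher and 31.2% lower. Their median was -0.11 against 0.12. After quantile normalization 3197 of all genes were higher and 2333 lower, in place of 3956 and 1943, and the median of all genes was 0.03. Ehhadh read 9.05, 7.83 and 8.09 against 11.52, 11.66 and 11.75, a difference of -3.32 ± 0.28 (9.99-fold, adjusted p = 2.35e-11). The lowest other rat of the GTX set read 10.70, in DEN long. Cyp4a8 read 4.78, 4.97 and 4.67 against 6.10, 8.75 and 8.79, a difference of -3.07 ± 0.75 (adjusted p = 0.000882). Acot12, a cytosolic acetyl-CoA thioesterase, read 8.11, 7.15 and 7.20 against 9.17, 8.99 and 9.06, a difference of -1.59 ± 0.21 (adjusted p = 1.6e-07). Cpt1a, the liver form of the rate-setting carnitine transferase, fell by 0.84 ± 0.17. Decr2, Acadm, Angptl4, Crot, Slc27a2 and Fabp1 fell, with differences from -0.79 to -0.41.

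Higher in 3MeDAB long were Cpt1b, Cidea, Acot2 and Acadl. Cpt1b read 8.47, 7.69 and 8.11 against 5.74, 5.83 and 6.00, which are below the filter level, for a log2 difference of at least 2.06. Without Cpt1b and Acot1 the counts were 3 higher and 10 lower of 30. Cidea read 8.92, 9.28 and 9.74, a rise of 2.06 ± 0.46 (adjusted p = 0.000348). Acot2 read 11.18, 11.53 and 11.65 against 10.37, 10.48 and 10.50, a rise of 1.01 ± 0.30 (adjusted p = 0.00615). Apart from that of Cpt1b, the calls of 3MeDAB long held without each rat in turn, except for those of Acadl and Fabp1. Of 16 further peroxisomal genes, 11 fell and 1 rose. Amacr, a racemase of branched acyl chains, fell by 2.00, Acox2 fell by 0.87 and Cat, the catalase, fell by 0.84. Macrophage markers rose in 5 of 7 (mean level 10.34 to 10.71 against 9.86 to 10.12), and of 4 adipocyte markers tested Fabp4 rose by 1.99, whose part was not tested.

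DEN short, with 2 rats, had 0 higher and 2 lower (7.2% and 10.3%). Fabp3, the heart type binding protein, read 6.38 and 6.46 against 6.90, 7.06 and 6.96, a difference of -0.55 ± 0.14 (adjusted p = 0.00503). Crot, the peroxisomal octanoyltransferase, read 11.98 and 12.04 against 12.40, 12.68 and 12.51, a difference of -0.52 ± 0.16 (adjusted p = 0.025). The count was 0 without DEN short rat 2, and 1 without DEN short rat 3, GTX control rat 2 or GTX control rat 3. In a fit of only the groups compared it was 9. DEN long had 1 higher and 4 lower (10.4% and 6.31% of all genes, 16.7% either way). Fabp3 read 7.52, 7.45 and 7.73, a rise of 0.59 ± 0.12 (adjusted p = 0.000762), so it lay below the controls at the short time and above them at the long. Cyp4a8 read 5.74, 5.84 and 5.50, a difference of -2.18 ± 0.75 (adjusted p = 0.0409). Pdk4 read 9.65, 9.49 and 9.91, a difference of -1.44 ± 0.43 (adjusted p = 0.0179), in 1 of 2 probe sets. Cpt1a read 11.53, 11.42 and 12.35 against 12.61, 12.38 and 12.39, a difference of -0.69 ± 0.17 (adjusted p = 0.00365), and Angptl4 fell by 0.64. DEN long rat 3 was the highest of its group in 27 of 32 genes. Macrophage markers rose in 4 of 7, and their part was not tested. The count was 3 without DEN long rat 1, and 2 without DEN long rat 2, GTX control rat 2 or GTX control rat 3.

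**Figure D4:**
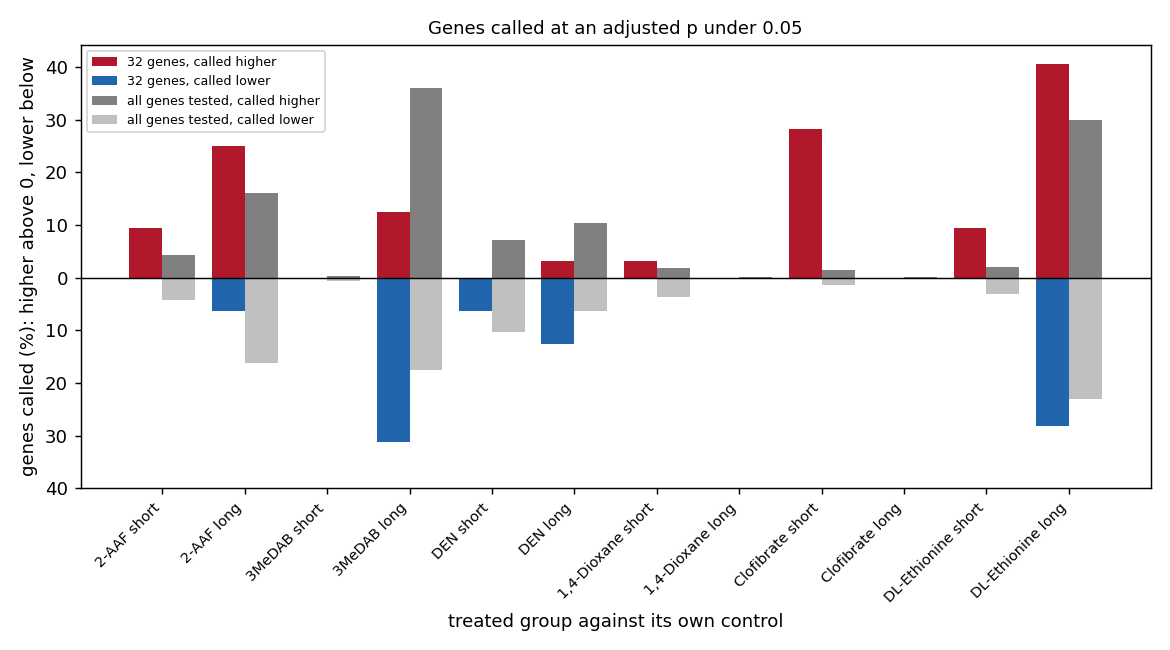
Percent of the 32 genes called higher (above 0) or lower (below 0) in each treated group against its own control, beside the percent of all 11013 genes tested. In Clofibrate short 28.1% of the 32 genes rose against 1.54% of all genes, and in 3MeDAB long 12.5% rose against 35.9%. After quantile normalization 3197 of all genes rose in 3MeDAB long, in place of 3956.

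The test set has no control, so each compound was set against the mean of the other 3 (9 rats). DCP short had 2 higher and 11 lower of 31 genes (all genes 13.6% and 28.5%). Cpt1b lay at 6.71 to 7.30 in DCP short against a lowest of 5.76, a median of 6.03 and a highest of 6.18 in the others, a difference of 1.09 ± 0.14 (adjusted p = 5.97e-06). Hadha, the other subunit of the trifunctional protein, lay at 10.24 to 10.38 against 10.88, 10.95 and 11.18, a difference of -0.67 ± 0.07 (adjusted p = 5.58e-07). Decr2 lay at 10.10 to 10.39 against 10.66, 10.91 and 11.11, a difference of -0.64 ± 0.09 (adjusted p = 2.07e-05). Angptl4 lay at 10.14 to 10.53 against 10.92, 11.22 and 11.56, a difference of -0.92 ± 0.30 (adjusted p = 0.0191). The groups did not overlap in these 4. Without DCP short rat 2 the count was 8. Clock genes differed too (7 of 11 called, with Dbp lower, at -2.31). Of 8 feeding genes, 3 were lower (Fasn, Thrsp and Srebf1) and 2 higher (Igfbp1 and Irs2). Of 8 hepatocyte markers, 3 were lower, with differences of -0.23 (Alb), -0.19 (Apoa1) and -0.17 (Fga). The part of these shifts was not tested.

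DCP long had 8 higher and 2 lower (17.8% and 19.9%). Acot2 lay at 10.11 to 10.51 against 9.02, 9.36 and 9.53, higher by 1.07 ± 0.15 (adjusted p = 1.84e-05) in all 3 probe sets. Vnn1, a pantetheinase, lay at 9.98 to 10.35 against 8.61, 9.38 and 9.78, higher by 0.88 ± 0.24 (adjusted p = 0.00804). Cpt1b was higher by 0.78 ± 0.14 (adjusted p = 0.000269), and Acadm, the medium-chain dehydrogenase, had a difference of -0.20 ± 0.06 (adjusted p = 0.00908). Fgf21 was higher in DCP at both times (2.64 and 1.87), and 4 of 4 endothelial markers were higher at the long time.

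For each of the other test compounds, few of the 31 genes differed from the mean of the rest. With no control, this does not show how many genes a compound moved from an untreated level. ME short had 2 higher and 1 lower (4.75% and 4.5%). Acot12 lay at 9.30 to 9.50 against 8.41, 8.94 and 9.25, higher by 0.53 ± 0.14 (adjusted p = 0.0221), and the count was 0 without ME short rat 1 and 1 without ME short rat 2. SN short had 1 higher and 1 lower (10.8% and 3.44%, or 697 and 428 genes in place of 1105 and 352 after quantile normalization). Cyp4b1 lay at 7.41 to 7.57 against 7.93, 8.03 and 8.27, a difference of -0.57 ± 0.08 (adjusted p = 0.000319), and Hadha was higher by 0.36 ± 0.07 (adjusted p = 0.00316). Hadha lay at 11.03 to 11.18 in SN short, which overlapped with ME short (10.88 to 11.04). It lay at 10.92 to 10.95 in Urethane short and lowest in DCP short (10.24 to 10.38), which lowers the mean of the others. Urethane short had 3 higher and 0 lower (3.57% and 4.12%, or 537 and 377 genes in place of 365 and 421 after quantile normalization). These were Acadm, Slc27a2 and Acadvl, by 0.17 to 0.21, and the count was 0 without any 1 of its 3 rats, 5 without DCP short rat 1, 6 without SN short rat 2 and 1 in a fit of only the groups compared. Urethane long had 2 higher and 2 lower (6.06% and 7.78%). Cyp4a8 lay at 8.28, 6.80 and 9.82, higher by 2.03 ± 0.57 (adjusted p = 0.0232), and Angptl4 at 9.79, 9.09 and 9.80, a difference of -1.16 ± 0.30 (adjusted p = 0.0148), both overlapping with the others. Acadvl was above all 9 others, by 0.14 ± 0.05 (adjusted p = 0.0452), and Cyp4b1 was lower (-0.28). The count was 1 without Urethane long rat 1 or rat 3, and 0 in a fit of only the groups compared. ME long (1.61% and 1.36%) and SN long (3.24% and 1.96%) had 0 called, with 7 and 9 at an unadjusted p under 0.05, and SN long had 1 without DCP long rat 2. Both had 1 with the mean of probe sets.

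**Figure D5:**
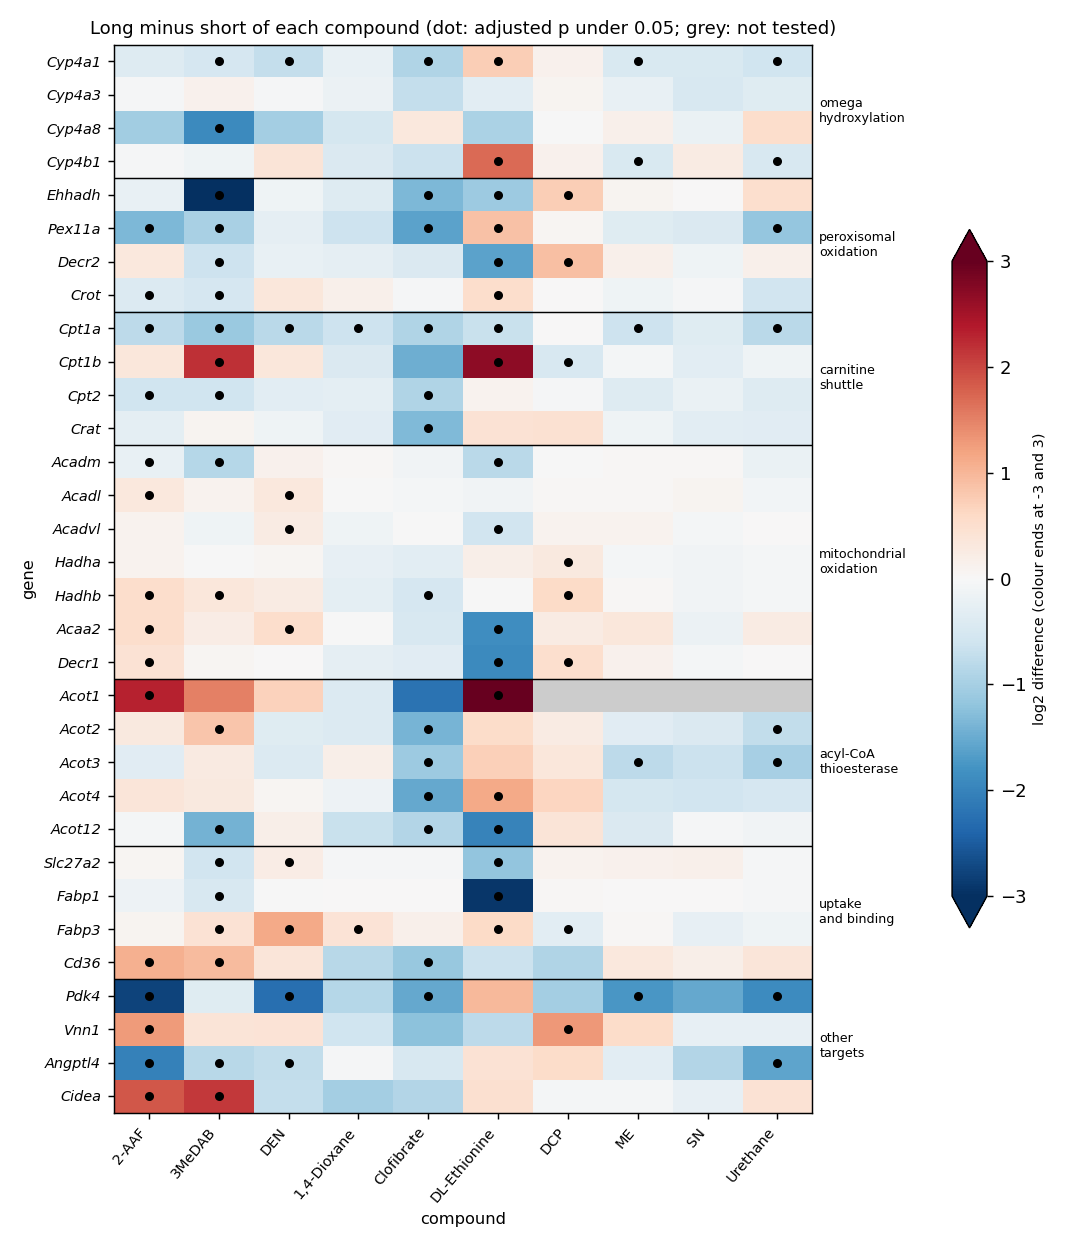
Log2 difference of long minus short for the 32 genes (rows) in each of the 10 compounds (columns), with a dot where the adjusted p was under 0.05 and grey where the gene was not tested. Cpt1a is lower in the long group in 8 compounds and Pdk4 in 5, and neither is higher in any.

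The long group was compared with the short group of every compound, which involves no control. Cpt1a was lower in the long group of 8 of 10 compounds (2-AAF, 3MeDAB, DEN, 1,4-Dioxane, Clofibrate, DL-Ethionine, ME and Urethane), with differences from -1.11 to -0.61, and called higher in 0. In DCP and SN it differed by 0.01 and -0.35. Its rats did not overlap in these 8. In 2-AAF, Cpt1a went from 12.67, 12.88 and 12.96 to 12.13, 11.66 and 12.38. In Urethane it went from 12.51, 12.57 and 12.47 to 11.98, 11.40 and 11.72. In 1,4-Dioxane the call held without 1 of 6 rats only, and in ME without 2.

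Pdk4 was lower in 5 compounds and called higher in 0. In 2-AAF it fell from 13.13, 12.14 and 12.54 to 9.83, 9.17 and 10.51 (-2.77 ± 0.43, adjusted p = 9.42e-06). In DEN it fell from 11.96 and 11.92 to 9.65, 9.49 and 9.91 (-2.26 ± 0.48, adjusted p = 0.000535). In Urethane it fell from 11.13, 10.96 and 11.02 to 8.59, 9.64 and 9.19 (-1.90 ± 0.54, adjusted p = 0.0249), and in ME from 11.50, 11.21 and 11.12 to 8.74, 9.65 and 10.17 (-1.76 ± 0.54, adjusted p = 0.0309). The calls of ME and Urethane each held without 2 of 6 rats. Angptl4 fell in 4 compounds, most in 2-AAF (-2.02 ± 0.19) and Urethane (-1.58 ± 0.37). Cyp4a1 was lower in 5 compounds (3MeDAB, DEN, Clofibrate, ME and Urethane) and higher in DL-Ethionine by 0.74 ± 0.20. Fabp3 was higher in 4 compounds, by 1.14 ± 0.14 in DEN, and lower in DCP by 0.32.

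By compound, 2-AAF had 8 higher and 7 lower (18.3% and 17.5% of all genes, 35.8% either way), with Cidea, Vnn1 and Cd36 higher by 1.87, 1.28 and 1.08 and Pex11a lower (-1.36). Without Acot1 and Cpt1b it had 7 and 7, and in a fit of only the groups compared 9 were called. 3MeDAB had 6 and 13 (39.9% and 19.3%, 59.2% either way), with Ehhadh lower (-3.37 ± 0.28), and 5 and 13 without Acot1 and Cpt1b. After quantile normalization 3584 of all genes were higher and 2624 lower in 3MeDAB, in place of 4393 and 2131. DEN had 5 and 4 (18.6% and 11.7%, 30.2% either way), with 3 in all without DEN short rat 3 and 4 in a fit of only the groups compared. 1,4-Dioxane had 1 and 1 (3.07% and 2.23%), Fabp3 and Cpt1a, and leaving out any of its 6 rats gave 0 or 1, and a fit of only the groups compared gave 4. DL-Ethionine had 8 and 10 (30.6% and 21%), or 6 and 10 without Acot1 and Cpt1b, with Fabp1 lower (-2.92). Acot12 and Decr1 were lower (-1.99 and -1.91). DCP had 6 and 2 (25.8% and 14.2%), with Vnn1 higher by 1.30, Decr2 by 0.90 and Ehhadh by 0.74, and had 5 in a fit of only the groups compared. ME had 0 and 5 (8.77% and 8.23%), which became 1 to 3 when any of its 6 rats was left out and 0 in a fit of only the groups compared. Urethane had 0 and 8 (7.83% and 5.86%), with Pex11a lower (-1.16), and had 5 without Urethane short rat 1 and 4 without Urethane long rat 3. SN had 0 of 31 called (1.7% and 3.15%, or 227 and 275 genes in place of 174 and 322 after quantile normalization), 7 at an unadjusted p under 0.05, and 1 in a fit of only the groups compared.

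Clock genes, feeding genes and markers of other cell types differed between the short and long groups of several compounds, and their part in these results was not tested. Dbp, a clock output factor, was lower in the long group of Clofibrate (-4.06), DL-Ethionine (-3.67) and 1,4-Dioxane (-2.99), and higher in that of DCP (2.81). Bmal1, the core activator, moved the opposite way in these 4 compounds (2.92, 2.93, 2.72 and -1.53). Of 11 clock genes, 0 were called in ME and in Urethane.

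Of 8 feeding genes, 5 were lower and 0 higher in the long group of 2-AAF, with Scd, the stearoyl-CoA desaturase, at -5.71 and Thrsp, a lipogenic nuclear protein, at -3.12. In 3MeDAB and in DL-Ethionine 4 were lower and 0 higher, with Thrsp at -4.73 and -5.32. DEN and Clofibrate had 2 lower each and 1,4-Dioxane 1. Urethane had 2 lower and 1 higher, DCP 3 and 3, ME 1 higher, and SN 0.

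Macrophage markers were higher in the long group in 7 of 7 for DEN (mean level per rat 10.50 to 10.69, against 9.64 to 9.67 in the short group), in 7 of 7 for DL-Ethionine (10.79 to 11.21 against 9.55 to 9.76) and in 6 of 7 for 3MeDAB (10.34 to 10.71 against 9.33 to 9.86). They were lower in 6 of 7 for ME (8.65 to 8.86 against 9.28 to 10.58), in 4 of 7 for Urethane (7.94 to 8.94 against 8.84 to 9.49) and in 2 of 7 for 2-AAF (9.18 to 9.64 against 9.47 to 10.15). In the other 4 compounds 0 of 7 were called. Endothelial markers were higher in 3 of 4 for 3MeDAB and for DL-Ethionine and in 1 for DEN, and lower in 2 of 4 for ME. Of 5 stellate markers, 4 were higher in DEN (8.56 to 8.95 against 7.83 to 7.99). Hepatocyte markers had 4 of 8 lower in 2-AAF and in 3MeDAB, with 1 and 2 higher, and at most 1 called in each direction in the other 8 compounds.

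Across the 12 comparisons with a control, Cd36 rose in 5, Crat in 4, and Acot2 and Hadhb in 3 each, with 0 falls. Cyp4a8 and Angptl4 fell in 3 each, and Angptl4 rose in 1. Cyp4a3, Cpt2, Hadha and Vnn1 were called in none. The 6 comparisons within a set share controls, so these counts are not independent.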

How the data were processed

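Each of 65 rats gave 1 array of liver RNA. The deposited values are log2 expression values that the authors made with RMA, per the series' design text and the submitters' processing notes (version not given in the sources used here). The 3 sets appear to have been normalized apart, so each comparison stays within a set, except for 1 difference of differences named in the closing section. Of 31099 rows, 57 control probe sets and those with several gene symbols (436) or none (9780) were left out, which left 14217 genes, each read by its probe set with the highest mean. Genes above the median of the table in at least 2 arrays were tested with limma 3.58.1 in R 4.3.3, with group means and eBayes: 41 arrays of the GTX and NGTX sets together (11013 genes, 27 residual degrees of freedom) and 24 arrays of the test set (10220 genes, 16). Tests were two-sided, p-values were adjusted by Benjamini-Hochberg over all genes of a comparison, and the threshold was 0.05. They measure the spread between these rats, whose number limits the precision. Data were simulated with independent Gaussian noise for each gene and equal group means apart from the changed genes. There, 95% of genes changed by log2 1 were recovered for Clofibrate long against its control, with 6 false calls, and 92% for DCP long, with 12. Single rats in which many genes shift together were not simulated, so these shares do not give the power in the real data. Replicate numbers did not pair the rats: correlations of same-numbered deviations ran from -0.219 to 0.201, and were all over 0.1 in 1 of 22 comparisons. Values of each rat are given for called genes whose groups do not overlap, up to 6 higher and 4 lower in the Clofibrate comparisons and 3 and 3 elsewhere, with up to 3 named in each direction of other lists; Cyp4a1, Cyp4a3, Fabp1 and Pdk4 beside Clofibrate were named after their values were seen. The 32 genes, lists and tests were chosen with earlier results of these data known. Alternatives were other filters, the mean of probe sets, quantile normalization, a trended and robust fit, the compared groups alone, a replicate block and leaving out each rat.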

Additional observations from a re-analysis of the deposited data

Results flagged for a closer look

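The change from the short to the long group differed between Clofibrate and the mean of 1,4-Dioxane and DL-Ethionine in 17 of the 32 genes, by the interaction term of limma (adjusted p under 0.05 over all genes tested, 6.53% of which were higher and 9.87% lower). The difference of differences was below 0 in Acot1 (-4.18), Cpt1b (-2.59), Acot4 (-2.04), Pex11a (-1.74), Pdk4 (-1.60), Acot3 (-1.52), Acot2 (-1.46), Crat (-1.37), Cyp4b1 (-1.28), Cyp4a1 (-1.17), Cpt2 (-0.80) and Angptl4 (-0.68). It was above 0 in Fabp1 (1.45), Decr1 (0.75), Slc27a2 (0.56), Decr2 (0.51) and Acadvl (0.33). Leaving out each of 18 rats in turn gave 13 to 18 calls among the 32 genes. Angptl4 and Decr2 were each called in 7 of these 18 fits, Pdk4 in 11, Acadvl in 15 and Acot2 in 17. Without Clofibrate short rat 2 the adjusted p was 0.211 for Pdk4 and 0.0517 for Acot2. Acot1 and Cpt1b passed the filter on low values through treated rats alone. Their differences rest partly on levels below it, with means of 4.17 and 5.83 in Clofibrate long against a filter level of 6.03. The sizes listed for these 2 genes (-4.18 and -2.59) are therefore uncertain and are not to be ranked against the others. Without them 5 genes were above 0 and 10 below 0 among 30. The 2 other compounds were far apart at the long time, with Fabp1 at 14.09 to 14.13 in 1,4-Dioxane long and at 10.32 to 11.76 in DL-Ethionine long, so the mean of both stands for neither.

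The change from short to long also differed between the GTX and NGTX sets, each taken as the mean of its 3 compounds, in 17 of the 32 genes (24.6% of all genes higher and 15.6% lower). It was greater in the GTX set for Cd36 (1.67), Vnn1 (1.57), Cidea (1.56), Acaa2 (1.21), Decr1 (1.00), Fabp1 (0.75), Acot12 (0.74), Acot2 (0.68), Hadhb (0.64), Decr2 (0.60), Acadvl (0.32), Slc27a2 (0.31) and Acadl (0.31). It was smaller there for Pdk4 (-1.33), Angptl4 (-1.17), Cyp4a1 (-0.41) and Crot (-0.41). The compounds of the NGTX set were unlike: in DL-Ethionine, long minus short was -2.92 for Fabp1 and -1.91 for Decr1. In Clofibrate, Fabp1 lay at 14.10 to 14.16 in the short group and at 14.09 to 14.18 in the long group. A difference between the set means therefore need not be shared by every compound of a set. Each set's change is taken within that set and uses no control, and the sets appear to have been normalized apart.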

How the results depend on the processing

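None of the 253 called differences changed sign under any alternative, whereas 231 of the 823 not called did when some 1 rat was left out. A call needs a difference that is large beside its SE, so its sign could hardly change, and this contrast is no measure of robustness. Of the 253, 110 lost their call when some 1 rat was left out, 56 when the fit held only the groups compared, 13 with the mean of probe sets, 11 without a filter, 9 after quantile normalization, and 2 each with the replicate block and with the trended and robust fit. None of 238 lost it under the stricter filter. With only the groups compared, counts of called genes became 5 in 2-AAF short and in 2-AAF long, 9 in DEN short, 5 in Clofibrate short, 1 in Clofibrate long, 0 in DL-Ethionine short, 1 in Urethane short and 0 in Urethane long, and for long minus short 9 in 2-AAF, 4 in DEN, 4 in 1,4-Dioxane, 8 in Clofibrate, 5 in DCP, 0 in ME and 1 in SN. With the mean of probe sets DL-Ethionine short had 5, and ME long and SN long had 1 each, as they had without a filter. The replicate block gave 9 calls for Clofibrate short, as without it, and moved no count by more than 1.5 times. Leaving out each rat gave 0 to 4 calls in 2-AAF short, 4 to 11 in 2-AAF long, 0 to 2 in DEN short, 2 to 6 in DEN long, 0 to 2 in 1,4-Dioxane short, 0 to 1 in 1,4-Dioxane long, 2 to 9 in Clofibrate short, 0 to 2 in DL-Ethionine short, 0 to 6 in Clofibrate short against the other NGTX compounds, 8 to 14 in DCP short, 0 to 3 in ME short, 0 to 1 in SN long, 0 to 6 in Urethane short and 1 to 4 in Urethane long. For long minus short it gave 3 to 8 in DEN, 0 to 1 in 1,4-Dioxane, 2 to 14 in Clofibrate, 1 to 3 in ME and 4 to 7 in Urethane. Without 1 rat of DEN short, the lone rat was assumed to vary like the other groups. Quantile normalization moved the median of all genes by up to 0.11 (GTX and NGTX) and 0.03 (test). The causes were not tested, except that smaller fits hold fewer rats.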
